A study of Homo sapiens with 24 samples.

Results

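The comparison described here sets PC9 cells kept without asparagine for 24 h against PC9 cells kept with asparagine for 24 h, both in the presence of the drug ISRIB. Its members are 6 of the 24 RNA sequencing libraries of the series, chosen by their labels: 3 biological replicates in RPMI medium lacking asparagine and 3 in RPMI medium with asparagine, all 6 with 200 nM ISRIB. PC9 is an established human line of non-small cell lung cancer, grown as 1 line throughout, so all groups share its genotype. The cells grew in dishes for 2 days, were rinsed, and received the new medium with drug or vehicle 24 h or 6 h before harvest. The groups used beside the main one were the same pair of media at 24 h with vehicle (0.004% DMSO) and at 6 h with ISRIB, 3 replicates in each group.

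Asparagine is a non-essential amino acid that cells make from aspartate and glutamine with the enzyme asparagine synthetase (ASNS). When an amino acid runs short, uncharged tRNA activates the kinase GCN2, which phosphorylates the translation initiation factor eIF2. Phosphorylated eIF2 inhibits its exchange factor eIF2B, general translation falls, and the mRNA of the transcription factor ATF4 is translated, which raises ASNS and other genes of amino acid supply. This is the integrated stress response, and ISRIB is a small molecule that keeps eIF2B active and so blunts it. The comparison asks what removing asparagine did to the RNA of cells in which that response was blunted.

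The 6 libraries held 16737384 to 27495861 counts each, and 17409 of 37411 genes in the table had enough counts to be tested. Epithelial markers were present at a summed 9065 to 11610 CPM (counts-per-million, of the library total), while 2 of the 10 listed, NKX2-1 and NAPSA, a lung transcription factor and a lung protease gene, were below 1 CPM in every library. Leukocyte markers summed to at most 1.78 CPM. Fibroblast markers summed to 9.83 to 14.3 CPM without asparagine and 4.83 to 8.12 with it, nearly all of it COL1A1, with DCN and LUM at 0 in all 6. Endothelial markers summed to 4.24 to 5.46 without asparagine and 10.95 to 12.2 with it, nearly all of it PECAM1 and CDH5, with KDR at 0; the part of these markers in the results was not tested. The libraries also differed in how counts followed the GC content of transcripts. The slope per 10 points of GC, in log2 units, was 0.20, -0.05 and 0.15 in replicates 1, 2 and 3 without asparagine and 0.11, 0.07 and -0.37 with it, and the fit was repeated without the 2 libraries at the ends of this range (0.20 and -0.37). The counts by list in the main comparison are followed in brackets by those without these 2 libraries where they differ. Replicate 3 with asparagine also lay farther from replicates 1 and 2 (chi-square per degree of freedom 53.8 and 46.8) than these lay from each other (4.94).

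Removing asparagine under ISRIB changed the RNA of 3855 genes at 24 h: 1736 were higher without asparagine (9.97% of those tested) and 2119 were lower (12.2%), by edgeR's quasi-likelihood test with Benjamini-Hochberg adjustment. The difference was at least 2-fold for 227 of the higher and 290 of the lower genes. Among the genes called, the 3 libraries of each group did not overlap for 1682 of the higher and 2051 of the lower ones, and over all tested genes the share with no overlap was 34.8%. The shares of 9.97% and 12.2% are those to set beside the counts of each list in this comparison. The median log2 difference over all tested genes was 0.01. Of the 3855 genes, 1047 were called in the same direction in each of the 17 other ways of processing that set no minimum fold. Without the 2 libraries at the ends of the GC range 2048 genes were called, of which 1756 were among the 3855.

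The genes that mark the integrated stress response did not move as a group. Of 12 such genes, 2 rose, 5 fell (3 without the 2 libraries) and 5 did not pass the test, with a median log2 difference of -0.03. ASNS stood at 18.0, 18.8 and 17.2 CPM (from here on scaled by TMM factors) in the 3 libraries without asparagine and between 20.8 and 23.7 CPM in the 3 with it. All 3 libraries without asparagine were thus lower than all 3 with it, by a log2 difference of -0.28 ± 0.10 (SE), which did not pass (edgeR adjusted p = 0.055). It passed with several other ways of processing, among them DESeq2 and RLE scaling, always as a fall. With vehicle at 24 h, in contrast, ASNS went from 27.2 ± 1.58 to 57.1 ± 2.40 CPM (SD, n = 3) without asparagine, a log2 difference of 1.07 ± 0.10 (edgeR adjusted p = 8.4e-06). The difference between these withdrawal responses, ISRIB minus vehicle, was -1.35 ± 0.14 (edgeR adjusted p = 7.2e-06).

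**Figure D1:**
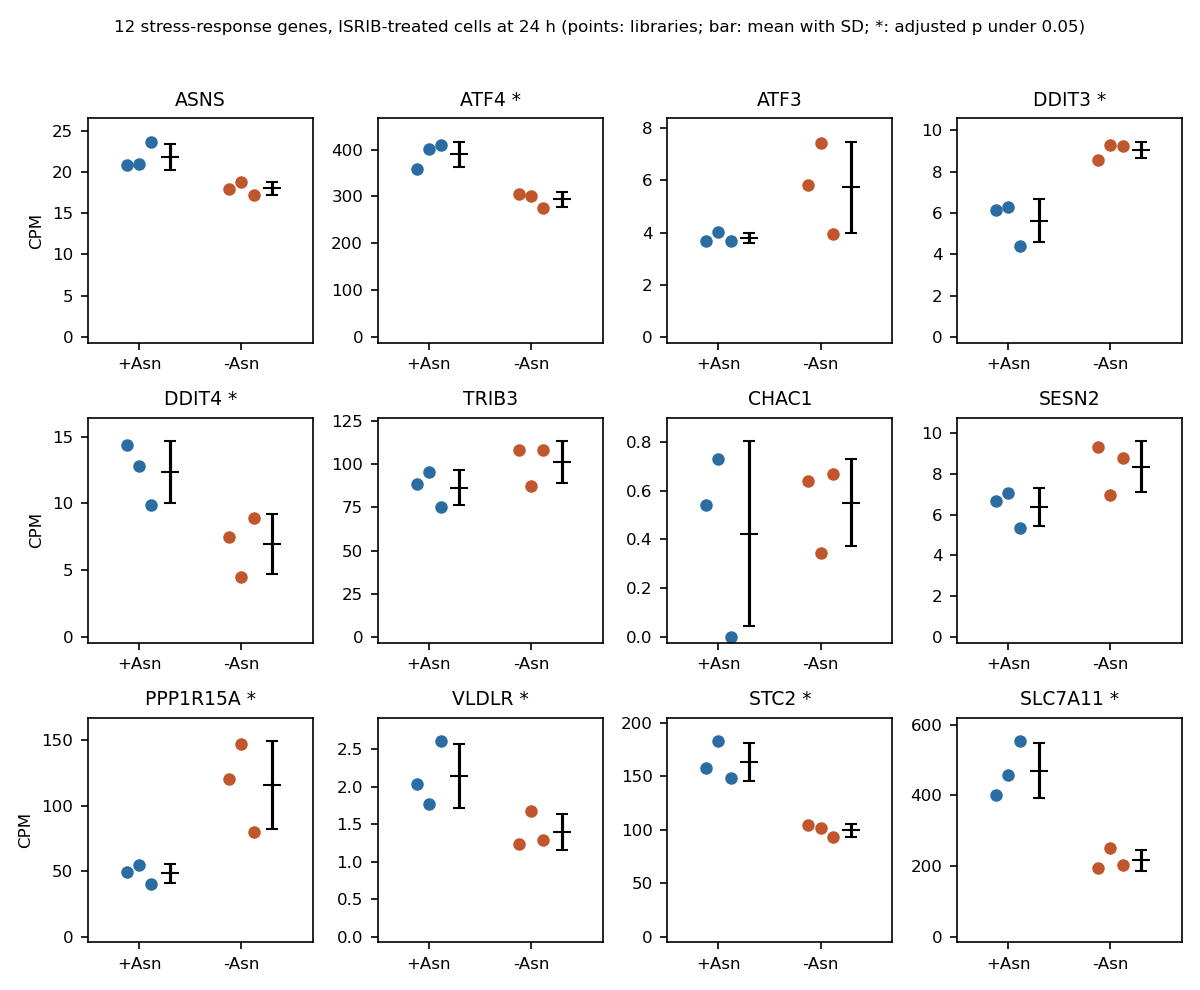
CPM (vertical axes, from 0) of the 12 stress-response genes in each of the 6 ISRIB-treated libraries at 24 h, with asparagine (blue) and without (orange); the black bar is the mean with the SD of 3 libraries and an asterisk marks an adjusted p under 0.05. SLC7A11, STC2 and ATF4 lie lower without asparagine in all 3 libraries, PPP1R15A and DDIT3 higher, and the CHAC1 libraries overlap.

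SLC7A11, which encodes the cystine importer of the xc- system, had the largest fall of the 12. It was at 194, 250 and 203 CPM without asparagine and at 401, 456 and 553 CPM with it. The groups were far apart, with a log2 difference of -1.12 ± 0.15 (edgeR adjusted p = 1.2e-05). ATF4 itself fell, from 359, 402 and 409 CPM with asparagine to 305, 301 and 275 CPM without it (-0.41 ± 0.10), and STC2, which encodes the secreted glycoprotein stanniocalcin 2, fell from 163 ± 17.8 to 99.5 ± 5.95 CPM (SD, n = 3; -0.71 ± 0.15). DDIT4, an inhibitor of mTORC1, was called lower at -0.83 ± 0.27 and VLDLR, a lipoprotein receptor, at -0.59 ± 0.21. These last calls were weak: DDIT4 lost its call without replicate 1 or 2 of either group, and VLDLR without replicate 1 or 3 of either group.

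The 2 genes that rose belong to the same response. PPP1R15A, which encodes GADD34, the subunit that directs a phosphatase to eIF2, was at 120, 147 and 80.3 CPM without asparagine and at 49.6, 54.6 and 40.5 CPM with it. Every library without asparagine was higher than every library with it (1.26 ± 0.24, edgeR adjusted p = 0.00063). DDIT3, which encodes the transcription factor CHOP, was at 8.59, 9.32 and 9.26 CPM against 6.15, 6.28 and 4.42 CPM, again with no overlap (0.68 ± 0.16). TRIB3, SESN2 and ATF3 did not pass, at 0.23 ± 0.13, 0.38 ± 0.22 and 0.60 ± 0.26, and CHAC1, a glutathione-degrading enzyme that ATF4 is known to raise, was under 1 CPM in all 6 libraries and at 0 in 1 of them.

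The promoters of 3 of these genes, all among the 5 that did not pass, hold the letters TGATGNAA of the C/EBP-ATF response element, through which ATF4 is known to act. They are shown because they hold these letters, and whether the matches were in use in these cells was not tested. The sequences are from RefSeq promoter windows on GRCh38.p14 (250 bases before to 50 after a start site), which were found for 11 of the 12 genes. Each is printed 5′ to 3′ on the strand of the gene, with the match in capitals; the match of CHAC1 is on the opposite strand.
ASNS, chr7:97872439-97872506, minus strand: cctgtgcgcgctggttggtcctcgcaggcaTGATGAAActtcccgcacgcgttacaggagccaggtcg
ATF3, chr1:212565186-212565253, plus strand: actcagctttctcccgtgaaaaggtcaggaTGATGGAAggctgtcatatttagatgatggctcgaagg
CHAC1, chr15:40953232-40953299, plus strand: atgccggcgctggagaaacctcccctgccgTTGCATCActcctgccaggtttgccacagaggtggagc
The match ends 60 bases before the start site in ASNS, 183 in ATF3 and 201 in CHAC1. On either strand this motif occurs in a window of 4.46% of the 27305 genes of the RefSeq table, where a gene can have several windows, and in 8 of the 32 ATF4 and CHOP targets that had a window. A match of letters is a description and not evidence of binding.

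Known targets of ATF4 and CHOP, which overlap with the 12 genes above, were lower more often than higher. Of 42 tested, 5 rose and 11 fell (2 and 7 without the 2 libraries), against 9.97% and 12.2% of all genes, with a median of -0.14. XPOT, the tRNA exporter, fell from 126, 129 and 173 CPM to 74.0, 84.0 and 77.9 CPM (-0.86 ± 0.12), and PSAT1 of serine synthesis fell by 0.74 on the log2 scale. SLC38A2, a neutral amino acid transporter that starvation is known to raise, was at 0.02 ± 0.13. Among 17 amino acid transporters 1 rose and 4 fell (0 and 3 without the 2 libraries): besides SLC7A11 these were SLC7A2 (-1.41), SLC1A5 (-0.48) and SLC36A4 (-0.42), while SLC3A2, the heavy chain that pairs with SLC7A11, rose from 252 ± 51.4 to 361 ± 27.8 CPM (0.52 ± 0.13; SD, n = 3). SLC7A11 kept its call in every other way of processing and SLC7A2 in each in which it was tested, while the other calls were lost in at least 1.

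Aminoacyl-tRNA synthetases, which charge tRNA, split in both directions. Of 18 tested, 3 rose and 4 fell (2 and 1 without the 2 libraries), against 9.97% and 12.2% of all genes. Among them were KARS (-0.38), RARS (-0.51), GARS (-0.45), SARS (0.28) and MARS (0.35). NARS, the enzyme that charges the asparagine tRNA, was at 213, 234 and 212 CPM without asparagine and 189, 193 and 264 CPM with it, so the groups overlapped (0.03 ± 0.12). The enzymes that make amino acids and one-carbon units were lower more often, with 2 risen and 9 fallen of 26 (1 and 7 without the 2 libraries). GLUL, which makes glutamine from glutamate, fell from 67.6 ± 5.62 to 38.1 ± 1.46 CPM (SD, n = 3; -0.83 ± 0.08), and GOT2, the mitochondrial transaminase that makes aspartate, fell by 0.37. MTHFD1L of the mitochondrial folate pathway rose by 0.36, and MTHFD1 was at 0.04 ± 0.08.

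The largest falls among all genes were of another kind. EIF5 (ENSG00000100664.10, GRCh38 by GENCODE release 29, chromosome 14 from 103333544 to 103345025, plus strand) encodes the initiation factor that stimulates GTP hydrolysis by eIF2. It was at 250, 310 and 249 CPM without asparagine and at 1027, 1213 and 1362 CPM with it. The highest library without asparagine was far below the lowest with it, and the log2 difference was -2.15 ± 0.17 (edgeR adjusted p = 2.4e-08). Its processed pseudogene EIF5P1 on chromosome X had -2.36 ± 0.26, and since the copies can share reads neither value is certain. CYP4F3, a fatty acid and leukotriene hydroxylase, went from 24.8, 21.8 and 21.8 CPM to 5.35, 3.70 and 4.07 CPM, with no overlap (-2.37 ± 0.20), the largest fall among the genes eligible for naming, which average at least 5 CPM. HSD3B1, a steroid dehydrogenase, fell from 42.9 ± 3.27 to 10.4 ± 0.829 CPM (SD, n = 3; -2.04 ± 0.11). MAN1A1, a Golgi mannosidase, fell by 2.10 and IDH1, which makes NADPH in the cytosol, by 1.71 on the log2 scale.

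**Figure D2:**
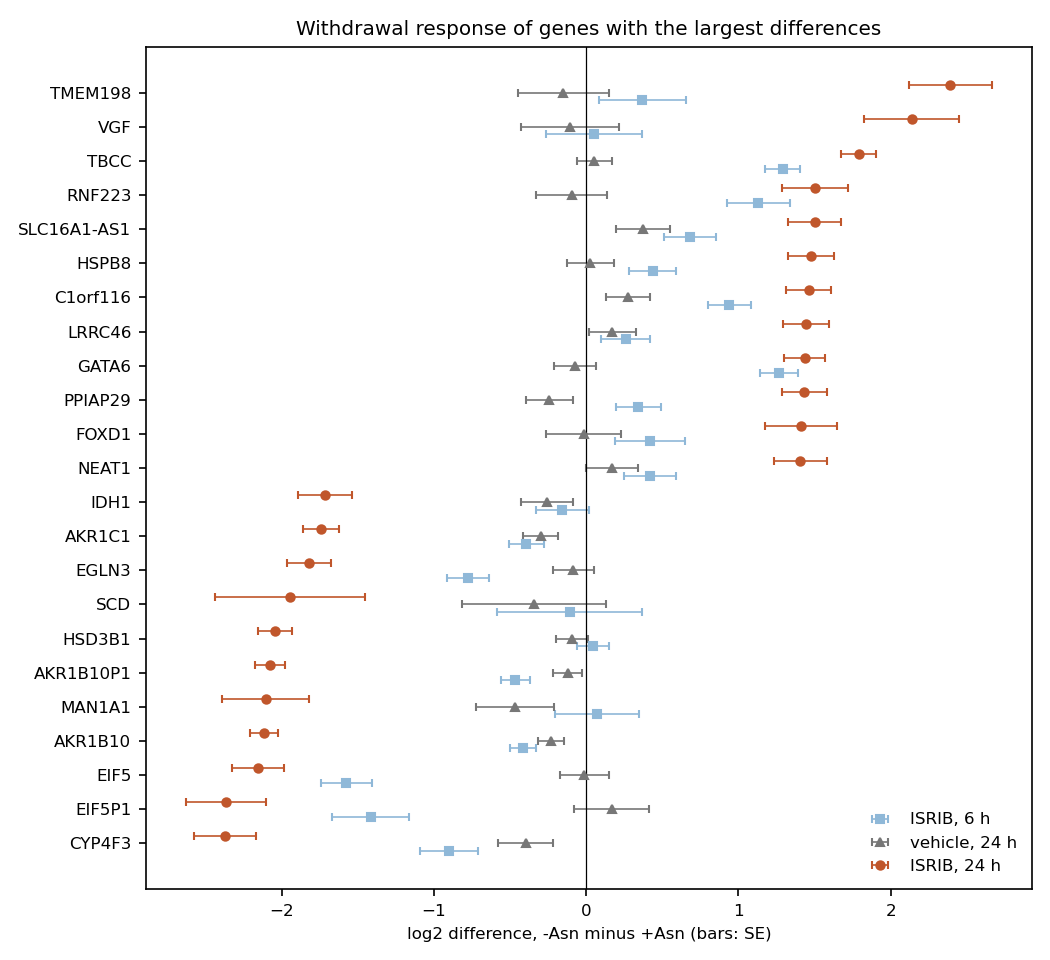
Log2 difference (horizontal axis, without minus with asparagine; bars are SE) of the 12 genes that rose most and 11 of the 12 that fell most with ISRIB at 24 h (orange circles), with the same difference for vehicle at 24 h (grey triangles) and ISRIB at 6 h (blue squares). The genes were chosen on the orange values, and the vehicle values lie between -0.47 and 0.37. At 6 h with ISRIB TBCC, GATA6, RNF223, C1orf116 and SLC16A1-AS1 were already called higher. EIF5, EIF5P1, CYP4F3, EGLN3, AKR1B10 and AKR1B10P1 were already called lower.

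The largest rise was that of TMEM198, which encodes a membrane protein: it was at most 2.71 CPM in the libraries with asparagine and at least 10.1 CPM in those without (2.39 ± 0.27). VGF, which encodes a secreted neuropeptide precursor, rose from 7.82, 6.74 and 2.55 CPM to 31.1, 21.1 and 24.2 CPM (2.14 ± 0.31). In both genes the groups did not overlap. TBCC (ENSG00000124659.6, chromosome 6 from 42744481 to 42746096, minus strand), a tubulin folding cofactor, was the tightest: 51.3, 51.6 and 53.1 CPM without asparagine against 14.8, 15.9 and 14.3 CPM with it (1.79 ± 0.11, edgeR adjusted p = 1.2e-09). NEAT1, the long non-coding RNA that builds nuclear paraspeckles, rose from 215 ± 1.39 to 572 ± 43.2 CPM (SD, n = 3; 1.41 ± 0.17). GATA6, an endodermal transcription factor, rose by 1.44, FOXD1, a forkhead factor, by 1.41 and HSPB8, a small heat shock protein, by 1.48. The antisense RNA SLC16A1-AS1 rose by 1.50 and the pseudogene PPIAP29 by 1.43; whether the counting used strand is not given in the sources used here, and reads of a gene and its antisense or pseudogene partner may not be separable. RNF223, C1orf116 and LRRC46 complete the 12, at 1.50, 1.46 and 1.44.

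Targets of NRF2, the transcription factor of the antioxidant response, fell together. Of 27 tested 18 fell and none rose, with a median of -0.58, against 12.2% and 9.97% of all genes, and 15 of the 18 calls held in every other way of processing. AKR1B10 (ENSG00000198074.9, chromosome 7 from 134527592 to 134541408, plus strand), an aldo-keto reductase, was at 175, 170 and 182 CPM without asparagine and at 722, 714 and 848 CPM with it (-2.12 ± 0.09, edgeR adjusted p = 1.2e-12). The 3 libraries of each group lay close together, and the groups were far apart. AKR1C1, another reductase, was at 206, 212 and 217 CPM against 697, 663 and 763 CPM (-1.74 ± 0.12), and AKR1C2 fell by 1.07. AKR1B10P1, a pseudogene of AKR1B10, had -2.08 ± 0.10, and reads can be shared among these near-identical genes. GPX2, an epithelial glutathione peroxidase, fell from 135, 117 and 123 CPM to 59.7, 45.3 and 61.9 CPM (-1.17 ± 0.13), ME1, which makes NADPH from malate, from 257 ± 59.3 to 129 ± 7.12 CPM (SD, n = 3; -0.99 ± 0.14), and ABCC2, an exporter of conjugates, by 0.82. FTL, ferritin light chain, was at 0.02 ± 0.23.

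Promoters of 6 of the 20 NRF2 targets with a RefSeq window hold the letters TGACNNNGC of the antioxidant response element, which is searched here because the targets moved together. The 2 shown are those of GPX2 and ME1, chosen after the values were known, with the match in capitals.
GPX2, chr14:64942829-64942897, minus strand: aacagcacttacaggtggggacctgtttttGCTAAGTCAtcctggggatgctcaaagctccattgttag
ME1, chr6:83431150-83431218, minus strand: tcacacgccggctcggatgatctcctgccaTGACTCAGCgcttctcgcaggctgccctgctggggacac
The match lies on the strand opposite to the gene in GPX2 and on the gene's own strand in ME1, and ends 113 and 128 bases before the start site. Over all genes 16.1% have the motif in a window on either strand, and the 9 letters hold 3 free positions. A core of the sterol regulatory element, TCACNCCAC, was searched in the same way and lay in 1 of 19 cholesterol synthesis genes and 1 of 16 fatty acid synthesis genes with a window, against 1.39% of all genes; no match says only that these letters are not in the window.

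Cholesterol synthesis and uptake genes, targets of the transcription factor SREBP2, fell in 16 of 26 cases and rose in 3, with a median of -0.55. HMGCS1, the first enzyme of the mevalonate branch, fell from 66.9, 83.5 and 105 CPM to 37.9, 48.1 and 31.3 CPM (-1.12 ± 0.15). SQLE, the squalene epoxidase, fell from 73.2 ± 13.0 to 35.0 ± 2.66 CPM (SD, n = 3; -1.06 ± 0.12), IDI1 by 1.31, FDFT1 by 0.68 and TMEM97 by 0.41. FDPS and MVD did not pass, at 0.06 ± 0.08 and -0.21 ± 0.22, and the 3 that rose, named after their values were seen, were TM7SF2 (0.91), PMVK (0.47) and EBP (0.30). Without the 2 libraries at the ends of the GC range 12 fell and none rose.

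Fatty acid synthesis genes fell in 6 of 16 cases (3 without the 2 libraries), and none rose. SCD, the desaturase that makes oleate, varied most between replicates: 69.6, 81.3 and 111 CPM without asparagine and 167, 273 and 568 CPM with it. The groups did not overlap (-1.94 ± 0.49), but the call was lost without replicate 3 with asparagine. ME1, ACSL1 (-0.63), an acyl-CoA synthetase, ACLY (-0.44), which makes cytosolic acetyl-CoA, and FADS1 (-0.54) fell as well, while ELOVL1 and SREBF1 were at -0.05 ± 0.11 and -0.18 ± 0.27. Genes of glycolysis and the hypoxia response fell in 13 of 29 cases (12 without the 2 libraries), none rose, and the median was -0.34. EGLN3, a prolyl hydroxylase induced by hypoxia, was at 4.95, 3.50 and 5.30 CPM without asparagine and between 16.1 and 16.3 CPM in the 3 libraries with it (-1.82 ± 0.14). SLC2A3, a glucose transporter, fell from 48.3 ± 2.64 to 20.5 ± 2.76 CPM (SD, n = 3; -1.24 ± 0.15), NDRG1 by 1.00, PFKM, the muscle-type phosphofructokinase, by 0.58 and PKM by 0.51. PGAM1 and ALDOA overlapped between the groups at 0.01 ± 0.14 and -0.02 ± 0.17.

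**Figure D3:**
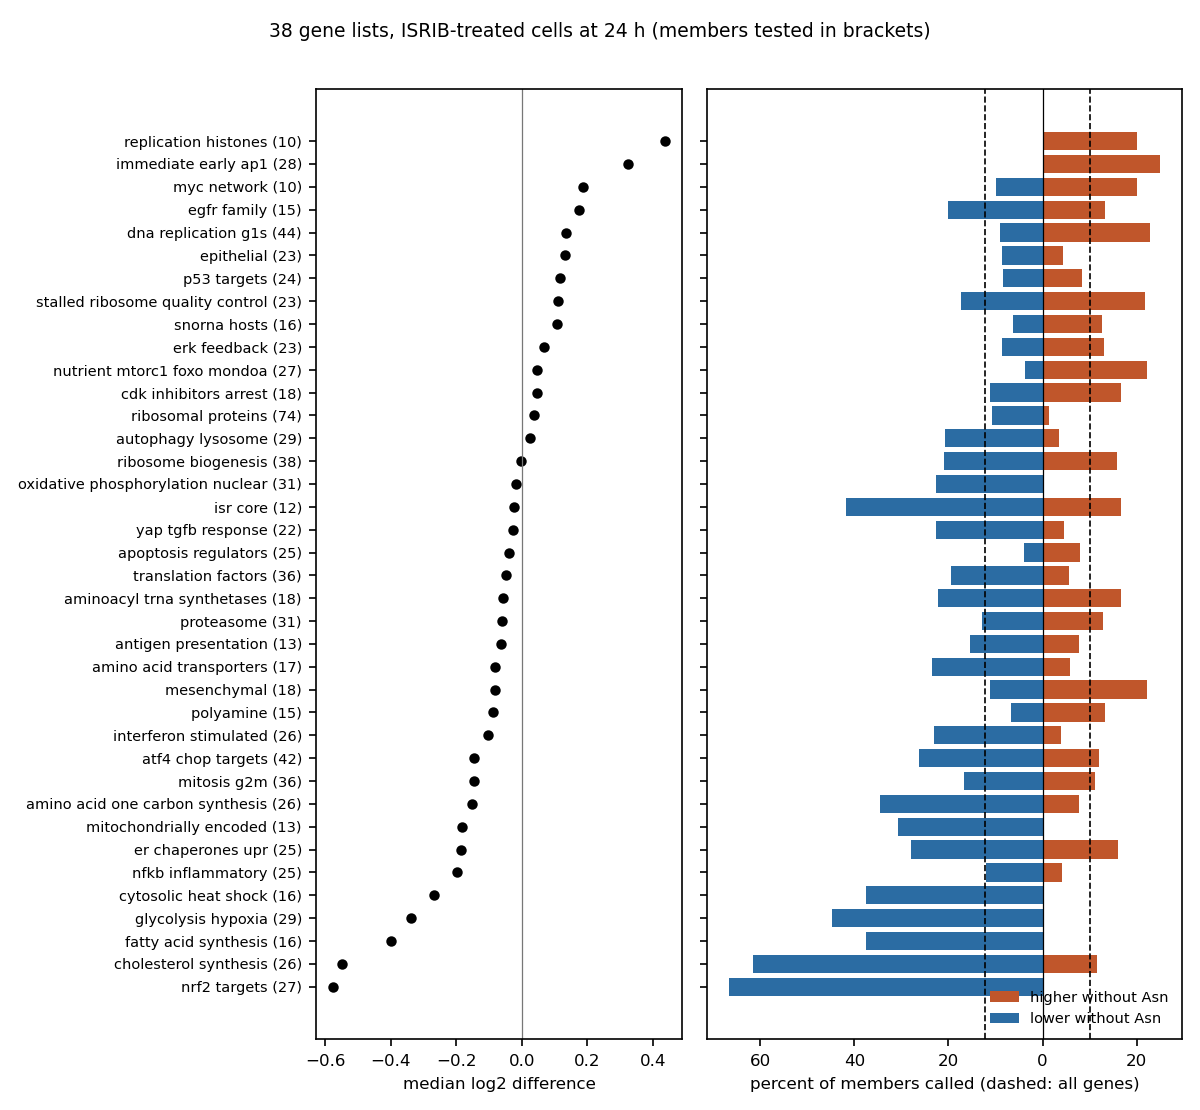
For each of the 38 gene lists, with the number of tested members in brackets, the left panel gives the median log2 difference without minus with asparagine under ISRIB at 24 h, and the right panel the percent of tested members called higher (orange, to the right) or lower (blue, to the left). The dashed lines are the shares over all tested genes, 9.97% higher and 12.2% lower; by median, NRF2 targets and cholesterol synthesis are lowest and replication histones and immediate early genes highest.

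Immediate early genes, transcription factors that cells switch on within minutes of a stimulus, were called only in the upward direction. Of 28 tested 7 rose (5 without the 2 libraries) and none fell, with a median of 0.32. KLF10 was at 110, 135 and 113 CPM without asparagine and at 49.8, 51.7 and 59.0 CPM with it (1.16 ± 0.10, edgeR adjusted p = 1.0e-07). JUN, a subunit of AP-1, rose from 65.9, 72.2 and 42.5 CPM to 130, 156 and 111 CPM (1.14 ± 0.20), and KLF4 from 32.0 ± 5.41 to 75.3 ± 7.84 CPM (SD, n = 3; 1.23 ± 0.16). IER2 and FOSL2 rose by 1.02 and 0.70, whereas MYC and KLF5 overlapped between the groups at -0.04 ± 0.14 and 0.03 ± 0.14. Nutrient-sensing genes under FOXO, MondoA and mTORC1 included 6 that rose and 1 that fell of 27 (7 and 1 without the 2 libraries): TXNIP, which restrains glucose uptake, rose from 158, 157 and 205 CPM to 271, 309 and 299 CPM (0.76 ± 0.15), FOXO3 by 0.61, IRS2 by 0.70, CITED2 by 0.79 and MLX, the partner of MondoA, by 0.41. TSC2 and RRAGC, which control mTORC1, were at 0.01 ± 0.18 and -0.04 ± 0.13.

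Feedback genes of the ERK pathway split, 3 up and 2 down of 23 (2 and 3 without the 2 libraries), against 9.97% and 12.2% of all genes. DUSP10, a phosphatase of JNK and p38, rose by 1.05 and EPHA4 by 0.53, while DUSP6, the ERK phosphatase, fell by 0.61 and SPRY1 by 0.78. EGFR, the receptor whose mutant form drives PC9 cells, rose from 809, 857 and 855 CPM to 1199, 1336 and 1126 CPM (0.54 ± 0.13), and 3 of its ligands, EPGN (-0.89), BTC (-0.54) and EGF (-0.56), fell; of the 15 genes of this family 2 rose and 3 fell (2 and 1 without the 2 libraries). Of 18 mesenchymal genes 4 rose and 2 fell (2 and 4 without the 2 libraries), with SNAI2 up by 0.83 and FN1 by 0.61, and COL4A1 and TGFBI down by 1.23 and 0.36. Of 23 epithelial genes 1 rose (ELF3, 0.68) and 2 fell (ESRP1, -0.50; CDH3, -0.30), and KRT8 and KRT19 did not pass; without the 2 libraries none rose and 1 fell. ID1, a target of BMP signalling, fell by 1.26 in the list of YAP and TGF-beta responses, where 1 of 22 rose and 5 fell (1 and 2 without the 2 libraries). Of 13 antigen presentation genes 1 rose and 2 fell (1 and 1 without the 2 libraries); the riser, the PD-L1 gene CD274, rose by 1.10 ± 0.30 but lost its call without replicate 2 lacking asparagine.

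Genes of DNA replication were higher more often than lower, 10 against 4 of 44 (9 and 2 without the 2 libraries), with a median of 0.13. For this list and those that follow, the shares over all tested genes were 9.97% higher and 12.2% lower. MCM7, a subunit of the replicative helicase, rose from 293, 295 and 246 CPM to 426, 388 and 431 CPM (0.58 ± 0.12). FEN1, RRM2 and E2F8 rose by 0.45, 0.44 and 0.50, and MCM4 was at -0.00 ± 0.06. RRM1, the large subunit of ribonucleotide reductase whose small subunit is RRM2, went the other way, from 185 ± 25.6 to 119 ± 6.83 CPM (SD, n = 3; -0.64 ± 0.11). Mitotic genes had 4 risen and 6 fallen of 36: FOXM1 (0.48) and PRC1 (0.29) rose, TTK (-1.01), CCNA2 (-0.39) and BIRC5 (-0.23) fell, and PLK1 was at -0.00 ± 0.16. Without the 2 libraries at the ends of the GC range 4 rose and 1 fell. Of 10 tested histone genes 2 rose, HIST1H2BK from 7.32, 7.57 and 5.78 CPM to 15.7, 15.3 and 15.5 CPM (1.16 ± 0.19) and HIST2H2BE by 0.84. In these bulk libraries fewer cells in a phase of the cycle and less RNA per cell cannot be told apart. Among regulators of arrest BTG1 (0.76), CDKN2D (0.90) and CDKN2A (0.57) rose, and CCNG1 (-0.96) and RBL2 (-0.50) fell, which makes 3 and 2 of 18 (1 and 1 without the 2 libraries). Among 24 targets of p53, DDB2 (0.72) and PPM1D (0.61) rose and MDM2 (-0.53) and CCNG1 fell (2 and 0 without the 2 libraries). Among 25 apoptosis regulators BID, a pro-apoptotic BH3 protein, fell by 0.97, and BCL2L1 and BCL2, which oppose apoptosis, rose by 0.50 and 0.48 (0 risen and 1 fallen without the 2 libraries). The counts of the p53 and apoptosis lists lay near or below the shares over all tested genes. With so few genes they are not read as a result about these lists.

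Genes of the translation machinery were called in both directions, against 9.97% higher and 12.2% lower among all tested genes. Of 36 translation factors 2 rose and 7 fell (2 and 2 without the 2 libraries), EIF5 by far the most, followed among the named ones by EIF2A (-0.67), EIF3H (-0.55) and EIF3D (-0.29). EIF2B4, the delta subunit of the ISRIB target eIF2B, rose from 30.9 ± 1.99 to 43.8 ± 3.83 CPM (SD, n = 3; 0.50 ± 0.11), while EIF2B3, its gamma subunit, was at 0.01 ± 0.14. Of 74 ribosomal protein genes 1 rose and 8 fell (0 and 3 without the 2 libraries), and their median was 0.04. RPL4 stood out with 404, 411 and 398 CPM without asparagine against 721, 696 and 809 CPM with it (-0.87 ± 0.08), RPS25 fell by 0.45 and RPL24 by 0.46, and RPS23 and RPLP0 were at -0.00 with SE of 0.08 and 0.11. Of 38 ribosome biogenesis genes 6 rose and 8 fell (3 and 4 without the 2 libraries), with RRS1 (0.82) and NOP14 (0.55) up and NHP2 (-0.52), POLR1C (-0.49) and WDR43 (-0.52) down.

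Genes that act on stalled ribosomes, the lesion that a missing amino acid can cause, had 5 risen and 4 fallen of 23 (1 and 1 without the 2 libraries). EDF1, which marks collided ribosomes, rose from between 99.5 and 103 CPM to 142, 130 and 147 CPM (0.47 ± 0.07), and PELO, which splits stalled ribosomes, rose by 0.35. EIF2AK4, which encodes GCN2, fell by 0.32, and IMPACT, an inhibitor of GCN2, by 0.53. None of these 9 calls held in every other way of processing, and the EDF1 call was lost with the GC correction. Proteasome genes had 4 risen and 4 fallen of 31 (2 and 3 without the 2 libraries). Over all tested genes 9.97% rose and 12.2% fell. PSMD1, a scaffold of the regulatory particle, was at 154, 167 and 161 CPM against 322, 317 and 408 CPM (-1.12 ± 0.11).

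Chaperones were lower in part, in a comparison where 9.97% of all tested genes rose and 12.2% fell. In the endoplasmic reticulum 4 of 25 genes rose and 7 fell: DNAJB9 (0.56) and XBP1 (0.41), a transcription factor of the unfolded protein response, rose, and PDIA3 (-0.61), ATF6 (-0.54) and PDIA6 (-0.32) fell. Without the 2 libraries at the ends of the GC range 2 rose and none fell. Cytosolic heat shock genes fell in 6 of 16 cases (without the 2 libraries 1 rose and 2 fell), HSPA4 (-0.56) and HSPH1 (-0.50) with the smallest p, but none of these calls held when each library was left out in turn. Of 31 nuclear genes of oxidative phosphorylation 7 fell (2 without the 2 libraries), COX7B by 0.53 and PPARGC1B, a coactivator of mitochondrial genes, by 0.55, and none rose. Of the 13 genes encoded in mitochondria 4 fell (1 without the 2 libraries) and none rose, MT-ND4 by 0.43 and MT-ND1 by 0.39, and none of these calls held when each library was left out in turn. Lysosome and autophagy genes had 1 risen and 6 fallen of 29 (2 and 3 without the 2 libraries), with GLA (-0.79), CTSL (-0.62) and GABARAPL1 (-0.46) down and MCOLN1 (0.71), a lysosomal calcium channel, up.

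Interferon-stimulated genes fell in 6 of 26 cases and rose in 1 (4 and 0 without the 2 libraries), against 12.2% and 9.97% of all genes. MX1 went from 3.62, 4.62 and 4.14 CPM to 1.56, 2.12 and 2.18 CPM (-1.10 ± 0.22), OAS3 fell by 0.61 and DDX60 by 0.64, and ISG20 rose by 1.05, although OAS1, MX1 and ISG20 were all under 5 CPM. Of 25 NF-kB and inflammatory genes 1 rose (IL11, 0.87) and 3 fell (0 and 4 without the 2 libraries), IL18 by 1.11, and NFKBIA, the feedback inhibitor, was at 0.07 ± 0.16. In the polyamine list 2 of 15 rose, DOHH (0.79) and ODC1 (0.32), and 1 fell, OAZ2 (-0.42) (0 and 2 without the 2 libraries). In the MYC network 2 of 10 rose, MXD1 by 0.76 and MLX, named above, and 1 fell, MXI1 by 0.59. Among 16 hosts of small nucleolar RNAs SNHG1 (0.54) and ZFAS1 (0.43) rose and GAS5 fell by 0.34 (1 and 0 without the 2 libraries). The polyamine and host counts lay near the shares over all tested genes, 9.97% higher and 12.2% lower, and all of these lists are short.

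How far this response depended on the drug was tested as the interaction of medium and drug at 24 h, the withdrawal response with ISRIB minus that with vehicle. The interaction passed for 604 genes in the upward direction (3.47%) and 973 in the downward direction (5.59%). The followed genes that passed were ASNS, SLC7A11 (-1.14 ± 0.20) and STC2 (-0.77 ± 0.21), while the interaction of ATF4, at -0.32 ± 0.14, and of PPP1R15A, at 0.97 ± 0.33, did not. VGF (2.24), SCAND1 (1.74), TBCC (1.74), PPIAP29 (1.67), RPS24P8 (1.64) and RP11-318C24.1 (1.61) had the largest upward interactions among genes that averaged at least 5 CPM over the 12 libraries at 24 h, the last of these pseudogenes. TMEM198, below that average, had 2.54 ± 0.40. EIF5P1 (-2.53), TLR4 (-2.16), EIF5 (-2.14), CYP4F3 (-1.97), AKR1B10P1 (-1.96) and HSD3B1 (-1.95) had the largest downward ones. For RPS24P8 and RP11-318C24.1 the interaction came with vehicle values of -1.28 and -1.20 beside 0.36 and 0.41 with ISRIB. For EIF5 and TBCC, in contrast, the vehicle response at 24 h was -0.01 ± 0.16 and 0.05 ± 0.12. The same genes were displaced in the same directions with vehicle at 6 h, a comparison given without a test: EIF5 was at 622 ± 156 CPM without asparagine and 1407 ± 194 CPM with it, and TBCC was at 28.6 ± 1.38 and 15.5 ± 1.01 CPM (SD, n = 3).

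Of 27 NRF2 targets 14 passed the interaction downward and none upward, and of 26 cholesterol genes 9 passed downward and 1 upward. Glycolysis and hypoxia genes passed downward in 6 of 29 cases, amino acid and one-carbon synthesis genes in 7 of 26, and immediate early genes passed upward in 5 of 28. Over all tested genes 5.59% passed downward and 3.47% upward. The ISRIB and vehicle pairs have no library in common. Their GC trends ran in opposite directions. Over tested genes the correlation of the log2 difference with GC content was 0.28 with ISRIB and -0.43 with vehicle at 24 h. The interaction called 1577 genes, 3013 with the GC correction and 551 without the 2 libraries at the ends of the GC range. The cause of these shifts was not tested, and the interaction counts by list were not repeated in these ways.

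**Figure D4:**
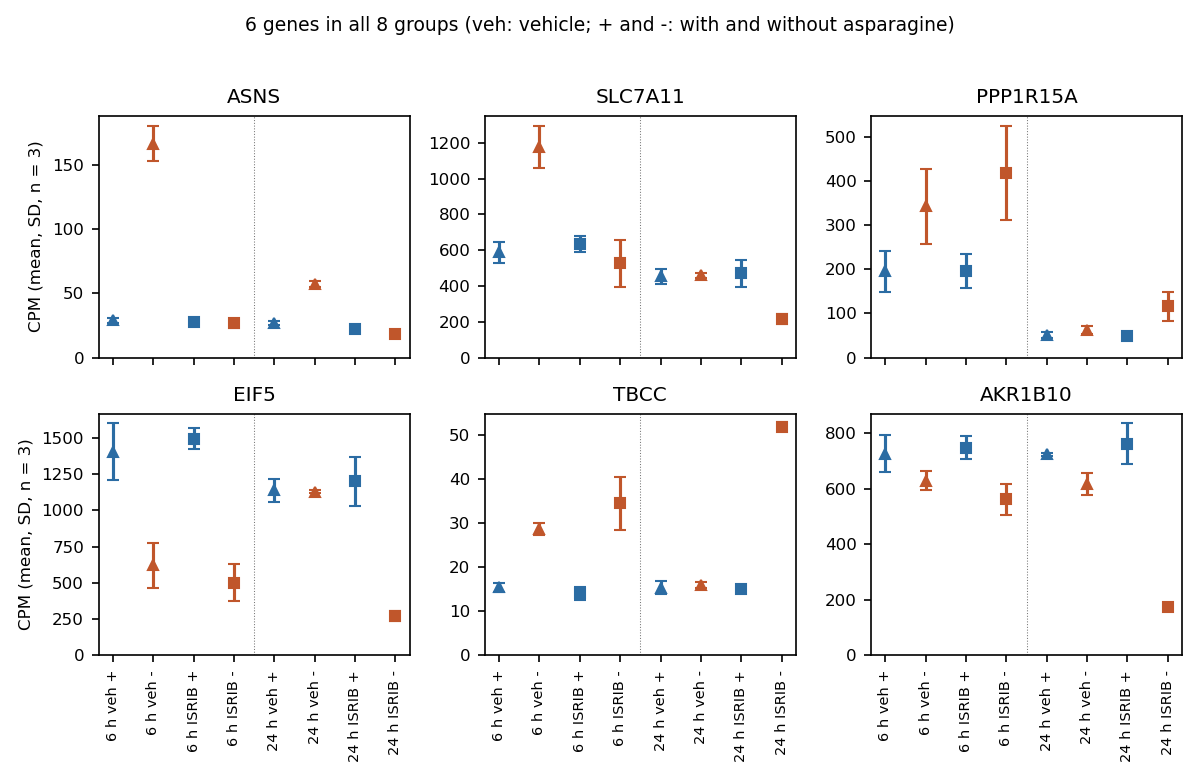
CPM (vertical axes, from 0; mean and SD of 3 libraries) of 6 genes in all 8 groups of the series, with vehicle as triangles and ISRIB as squares, asparagine present in blue and absent in orange. At 24 h without asparagine SLC7A11, EIF5 and AKR1B10 are low and TBCC is high with ISRIB only among the 4 groups of that time, while ASNS is high with vehicle.

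Time was examined by the same comparison at 6 h, in other dishes. At 6 h with ISRIB 284 genes were higher without asparagine (1.63%) and 116 were lower (0.666%). The response at 24 h minus that at 6 h passed for 125 genes upward (0.718%) and 339 downward (1.95%). TBCC, KLF10 and EIF5 had already changed at 6 h: TBCC by 1.29 ± 0.12, KLF10 by 1.26 ± 0.10 and EIF5 by -1.57 ± 0.17, and the differences between the times, at 0.50 ± 0.16, -0.10 ± 0.14 and -0.58 ± 0.23, did not pass. EIF5 stood at 502 ± 127 CPM without asparagine at 6 h and at 270 ± 35.3 CPM at 24 h (SD, n = 3).

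Other genes moved later. VGF was at 0.05 ± 0.31 at 6 h, a difference between the times of 2.09 ± 0.44, and LRRC46, DNAAF3, EHD2 and HIST1H2BK had differences of 1.18, 1.25, 1.16 and 1.14. HSD3B1, at 0.05 ± 0.11 at 6 h, had a difference of -2.09 ± 0.15 (edgeR adjusted p = 4.9e-08), and MAN1A1 (-2.17), CYP1B1 (-2.03), AKR1B10 (-1.70) and AKR1B10P1 (-1.61) had downward differences as well. AKR1B10 was called lower at 6 h too, at -0.41 ± 0.09. By list, 8 of 27 NRF2 targets and 6 of 26 cholesterol genes passed downward between the times, against 1.95% of all tested genes. None of either passed upward. Some of this was present early: at 6 h with ISRIB 6 of the 27 NRF2 targets were already called lower. So was 1 of the 26 cholesterol genes, against 0.666% of all tested genes.

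For some genes the 6 h response was gone or turned at 24 h. TNFRSF10D, a decoy receptor for TRAIL, was lower without asparagine at 6 h (-1.11 ± 0.10) and higher at 24 h, where it stood at 26.0, 25.8 and 27.0 CPM against 19.4, 17.4 and 19.4 CPM (0.49 ± 0.10), a difference of 1.60 ± 0.14. DUSP6 was higher at 6 h (0.57 ± 0.14) and lower at 24 h, with a difference of -1.18 ± 0.20. KLF5 and CDKN2B, an inhibitor of CDK4 and CDK6, were higher at 6 h, by 0.91 ± 0.14 and 1.06 ± 0.14, and had values of 0.03 and 0.04 at 24 h, with differences of -0.88 and -1.02 that passed. C8orf4, at 1.04 ± 0.33 at 6 h and -1.06 ± 0.39 at 24 h, neither of which passed, had a difference of -2.10 that did.

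The genes that changed also differed in what they encode. The share of asparagine codons in the longest annotated coding sequence had a median of 2.82% among the genes called higher and 4.04% among those called lower, against 3.42% among all tested genes with a coding sequence. Over 9903 genes with at least 5 CPM, the rank correlation across genes between a gene's asparagine codon share and its log2 difference was -0.35, the most negative of the 20 amino acids; isoleucine had -0.30, lysine -0.19 and arginine, the most positive, 0.22. In the decile of genes with the lowest asparagine share 22.3% were called higher and 3.82% lower, and in the decile with the highest share 6.58% were called higher and 24.4% lower. Genes are not independent replicates, so these are descriptions without a test, and they were looked for after the calls were known.

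Asparagine share moves with GC content, at a rank correlation of -0.50. After the GC correction the correlation with the log2 difference was -0.18, still the most negative of the 20, with isoleucine at -0.14 and lysine at -0.02. Within the third of these genes with intermediate GC content, where the median GC of the genes called higher and lower was 48.5% and 47.2%, the median asparagine share was 3.20% in the 477 called higher and 3.92% in the 665 called lower, while isoleucine shares were 3.87% and 4.87% and lysine shares 5.97% and 5.92%. Within the third with the highest GC content, asparagine, isoleucine and lysine shares were 2.37%, 2.90% and 4.53% in the genes called higher and 3.47%, 3.87% and 5.32% in those called lower. There the median GC was 58.5% and 55.8%, so GC content was less closely matched. Within the third with the lowest GC content (median GC 40.7% and 40.1%), these shares were 3.6%, 4.6% and 6.6% in the genes called higher. In those called lower they were 4.4%, 5.2% and 6.4%, so lysine went the other way. With vehicle at 24 h the correlation of the log2 difference with asparagine share was 0.35 and that with lysine share 0.48, and with ISRIB at 6 h they were 0.07 and 0.19. The vehicle libraries at 24 h had the opposite GC trend, and the part of GC content in these values was not tested beyond the correction.

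**Figure D5:**
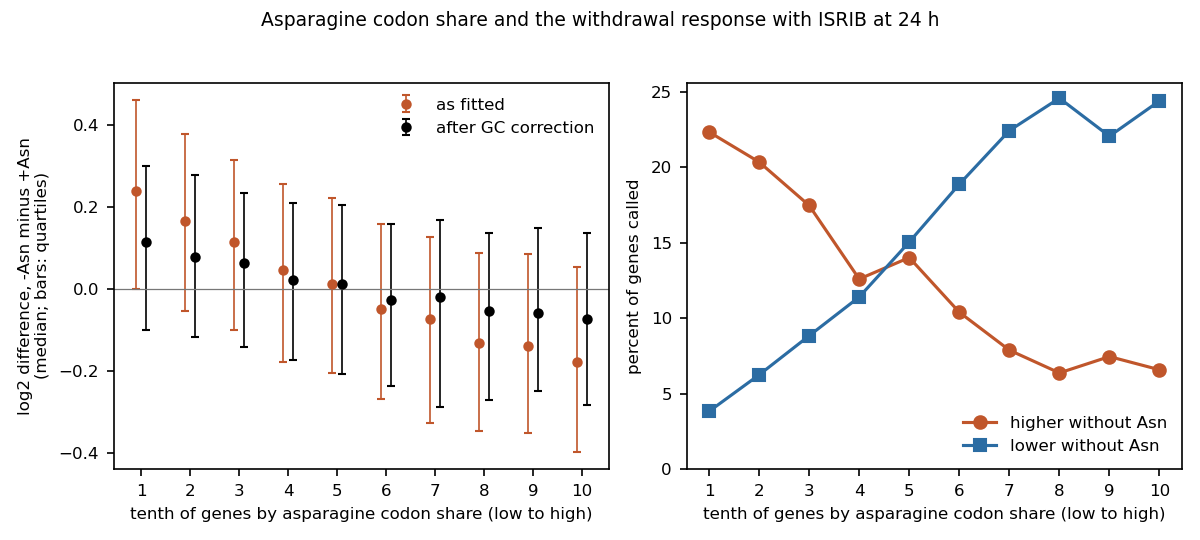
Genes with at least 5 CPM in deciles by the share of asparagine codons in their coding sequence (horizontal axes, low to high): the left panel gives the median log2 difference without minus with asparagine under ISRIB at 24 h, with quartiles as bars, as fitted (orange) and after GC correction (black), and the right panel the percent of genes called higher (orange) or lower (blue). The fitted median runs from 0.24 in the lowest decile to -0.18 in the highest, and from 0.12 to -0.07 after the correction.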

How the data were processed

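RNA of PC9 cells was sequenced in 24 libraries, 3 biological replicates in each of 8 groups, per the series' design text. The authors used Bowtie2, featureCounts and DESeq2 with hg38, per the submitters' processing notes; their versions and roles, and whether counting used strand, are not given in the sources used here. Deposited counts are reads per gene. A second deposited table holds log2 values after a variance-stabilizing transformation, with a floor of 3.45, and served as an alternative.

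Counts were filtered with filterByExpr, scaled with TMM factors and fitted with 1 mean per group over all 24 libraries (16 residual degrees of freedom, common dispersion 0.0176) in edgeR 4.0.16 under R 4.3.3. Each contrast had a quasi-likelihood F test with Benjamini-Hochberg adjustment over its tested genes, at 0.05. The steps were tested on simulated data. The p-values rest on the spread between replicates, estimated over all 8 groups and not from the 6 libraries alone. Identifiers matched GENCODE release 29 for 36620 of 37411 genes, which gave coordinates, types, GC content and codons.

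Genes were named by a rule: 12 stress-response genes, the 12 largest rises and falls (adjusted p under 0.05, at least 5 CPM, no overlap), the 6 largest each way for interaction and time (at least 5 CPM on average over the 12 libraries compared), and per list up to 5 members with the smallest and 2 with the largest p. Genes outside it are so marked. The promoters of the stress-response genes followed a rule of motif and list, and those of GPX2 and ME1 were chosen after the values were known. Members and lists were chosen with earlier results of these data known. Same-numbered libraries of the 2 groups correlated at 0.41, -0.30 and -0.14 in their deviations, so the numbers were not treated as pairs. No 2 replicates held identical values. Some genes that the rule names are not reported here.

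The results were recomputed with DESeq2 1.42.0, with upper-quartile or RLE scaling, without a filter or with one at 5 CPM (3 libraries), with a 2-fold minimum, with the compared groups alone, a replicate block, limma 3.58.1 on the deposited log2 values, a GC correction (a robust spline of each library's deviations on transcript GC, known for 99.5% of tested genes) with and without the block, omission of the 2 libraries at the ends of the GC slope, and of each library.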

Additional observations from a re-analysis of the deposited data

Results flagged for a closer look

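Among the 12 stress-response genes and the genes with the largest differences in either direction (at least 5 CPM on average over the 12 libraries compared), 28 values were singled out because the withdrawal response with ISRIB at 24 h differed, by the test of the difference itself, from that with vehicle at 24 h or from that with ISRIB at 6 h. Against vehicle, on the log2 scale, the downward differences among these were ASNS (-1.35), STC2 (-0.77), SLC7A11 (-1.14), CYP4F3 (-1.97), EIF5P1 (-2.53), EIF5 (-2.14), AKR1B10P1 (-1.96), HSD3B1 (-1.95) and TLR4 (-2.16). The upward ones against vehicle were VGF (2.24), TBCC (1.74), PPIAP29 (1.67), SCAND1 (1.74), RPS24P8 (1.64) and RP11-318C24.1 (1.61).

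Against 6 h the downward differences among these were SLC7A11 (-0.85), AKR1B10 (-1.70), MAN1A1 (-2.17), AKR1B10P1 (-1.61), HSD3B1 (-2.09), C8orf4 (-2.10) and CYP1B1 (-2.03). The upward ones against 6 h were VGF (2.09), LRRC46 (1.18), TNFRSF10D (1.60), DNAAF3 (1.25), EHD2 (1.16) and HIST1H2BK (1.14). Other genes passed these tests as well, among them TMEM198 (2.54 against vehicle), which averaged under 5 CPM.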

How the results depend on the processing

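The main comparison called 3855 genes. It called 517 with a minimum of 2-fold, 1544 with the compared groups fitted alone, 2048 without the 2 libraries at the ends of the GC slope, 5954 with the GC correction and 6505 with the GC correction and the replicate block. Leaving out each library gave 2415 (without replicate 1 lacking asparagine) to 3852. None of the 3855 genes changed sign where it was tested, and none was called the opposite way. The interaction called 1577 genes. It called 355 with a minimum of 2-fold, 551 without the 2 libraries, 2374 with DESeq2, 2556 with no filter, 3013 with the GC correction, 3643 with the block added, and 806 to 2235 with each library left out, at most 906 without replicate 1 or 3 lacking asparagine in either drug, vehicle replicate 2 or 3 with asparagine, or ISRIB replicate 3 with it. The difference between times called 464 genes. It called 53 with the groups alone, 139 with a minimum of 2-fold, 178 without the 2 libraries, 863 with DESeq2, 920 with no filter, 1419 with the GC correction, 1898 with the block added, and 223 to 641 with each library left out, at most 295 without replicate 1 or 3 at 24 h lacking asparagine, replicate 3 at 24 h with it, replicate 3 at 6 h lacking it, or replicate 2 or 3 at 6 h with it. The replicate block alone gave 4446, 2221 and 671 genes; for 15 of 24 libraries the highest correlation was with its own number, which is a hint from the data and not the design. Fits with libraries left out have fewer samples, and the 2-fold minimum removes small changes by construction; the cause of the other shifts was not tested.

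Of 271 named genes 191 were called, 105 of them in every alternative in which they were tested. Without the 2 libraries 60 lost their call, and none reversed. Depth limits the rarest genes: CHAC1, under 1 CPM, had an SE of 0.63.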
